A study of Homo sapiens with 6 samples.

Results

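The expression of 30 genes of cholesterol synthesis, uptake and efflux was examined in Hs578T cells, a human triple-negative breast cancer cell line, with and without knockdown of CCN3, a secreted matricellular protein. The genes were chosen by symbol: 18 encode enzymes that make cholesterol, 5 are SREBF1, SREBF2 and the genes of the proteins that control the processing of their products, 3 serve uptake and transport inside the cell, and 4 are the liver X receptors (LXRs) and the transporters that export cholesterol. They are 30 of the 46427 genes in the deposited count table, and all 30 passed the filter on low counts. Poly(A) RNA was sequenced from 3 samples of cells carrying a control shRNA (shCTRL) and 3 samples of cells carrying a single CCN3 shRNA (shCCN3). Both shRNAs came from the same retroviral puromycin vector, and all cells were grown in DMEM with fetal bovine serum. The methods speak of independent trials for the experiments in general, but neither they nor the labels say whether the 3 RNA samples of a group were separate cultures. The p-values therefore measure the spread between these samples, which may be technical. The question was how the transcripts of the cholesterol pathway differ between shCCN3 and shCTRL cells. The methods describe stable lines selected with puromycin, and no other CCN3 shRNA was sequenced. An effect of low CCN3 therefore cannot be told apart from other differences between the lines or from other targets of the shRNA.

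Cells obtain cholesterol by making it from acetyl-CoA through mevalonate, squalene and lanosterol, or by taking up lipoproteins. SREBP-2, encoded by SREBF2, is a membrane-bound transcription factor that switches on the synthesis genes after SCAP escorts it from the endoplasmic reticulum to the Golgi, and the INSIG proteins hold SCAP back when sterols are plentiful. LXRs respond to oxysterols, which accumulate with excess cholesterol, and switch on the exporters ABCA1 and ABCG1.

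Values are CPM, the counts of a gene relative to the TMM-adjusted size of its library. Differences are log2 fold changes (log2FC) of shCCN3 over shCTRL. A gene is called where its Benjamini-Hochberg p from the quasi-likelihood test of edgeR, adjusted across 17419 tested genes, was under 0.05. The libraries held between 56159110 and 68393177 counts. CCN3 itself fell from 101 ± 2.43 to 47.0 ± 0.469 CPM (mean ± SD, n = 3), with a log2FC of -1.10. The mesenchymal genes VIM, FN1, SPARC and CD44 were abundant (VIM at 6619 to 7992 CPM), and the epithelial and luminal genes CDH1, EPCAM and ESR1 were at or under 0.156 CPM in every library. The leukocyte gene PTPRC was at or under 0.203 CPM, while the luminal gene PGR was at 2.66 to 4.57 CPM and the endothelial gene PECAM1 at 3.02 to 4.35 CPM. shCCN3 replicate 2 stood apart from the others: its log2 deviations from the group mean had an SD of 0.176 over all genes, against 0.101 to 0.130 in the other 5 libraries, and its shortest genes were higher (median 0.11) and its longest genes lower (median -0.12) than in its group. Without it the call changed in 1 of the 30 genes, PMVK, and the log2FC was 0.23 for MVK, 0.53 for HSD17B7, -0.93 for ABCA1, -0.32 for EBP, 0.12 for NPC1 and -0.11 for NR1H3.

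The transcripts of cholesterol synthesis were higher in shCCN3 than in shCTRL cells along nearly the whole pathway. Those of the exporters ABCA1 and ABCG1 were lower, ABCG1 from low counts. Of the 30 genes, 19 were called higher and 4 lower. Across all genes tested 33.4% were called, 16.2% higher and 17.3% lower. The 30 genes were chosen with earlier results of these data known, so the shares over all genes give a scale and do not test the set. Of the 18 synthesis enzymes 16 were called higher and 0 lower. DESeq2 and limma-voom likewise called 0 enzymes lower, and 0 were lower at an unadjusted p under 0.05 in edgeR. The median log2FC of the enzymes was 0.68 and that of all 30 genes was 0.45, beside 0.00757 over all genes tested. In 19 of the 30 genes every shCCN3 library lay above every shCTRL library, in 5 every shCCN3 library lay below, and in 6 the groups overlapped. The corresponding shares over all genes tested were 22.7% and 23.6%. A call with a log2FC of at least 0.5 was reached by 14 of the 30 genes in the higher direction, 12 of them enzymes, where 9.1% of all genes tested reached it.

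The enzymes together made up 1915, 1945 and 1967 CPM in the 3 shCTRL libraries and 3338, 3426 and 3331 CPM in the 3 shCCN3 libraries. The 30 genes took between 0.315% and 0.317% of all counts in shCTRL and between 0.457% and 0.468% in shCCN3 libraries. All shCCN3 libraries thus lay above all shCTRL libraries in both sums. In RNA from bulk cultures, more cells with a transcript and more of it per cell cannot be told apart.

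**Figure D1:**
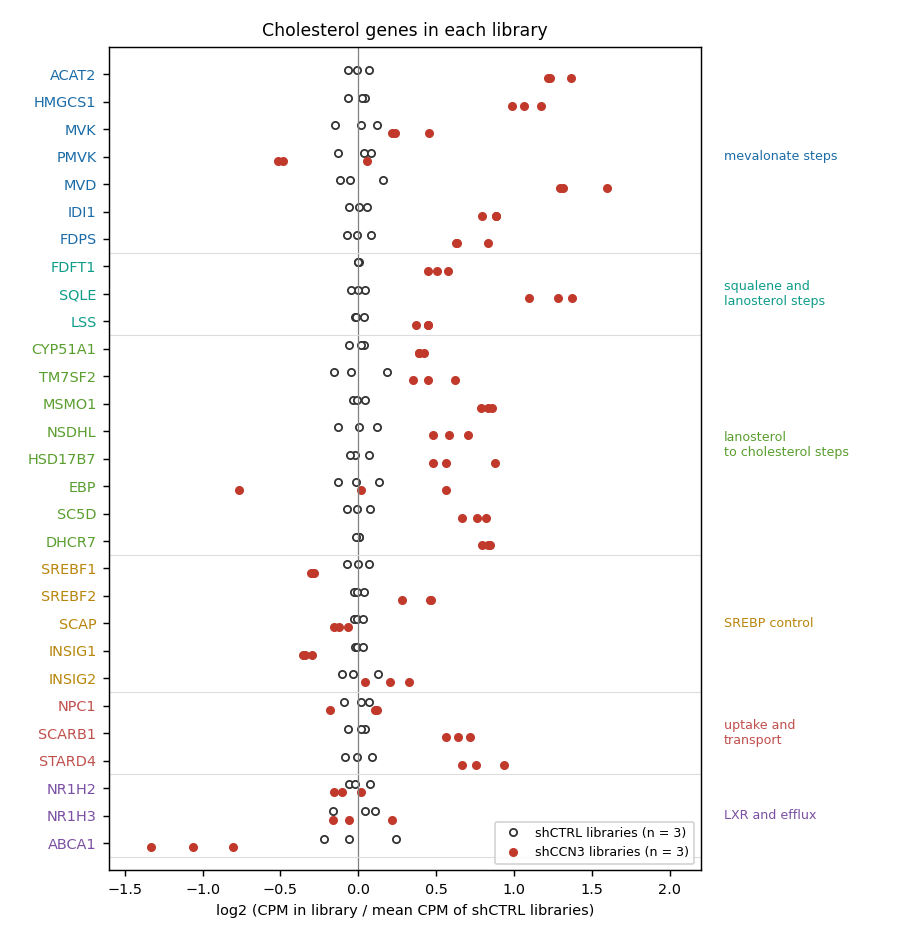
The plot gives each library's level of 29 of the 30 genes as log2 of its CPM over the mean CPM of the shCTRL libraries (x axis), with 1 line per gene, grouped and coloured by role (open circles: 3 shCTRL libraries, filled circles: 3 shCCN3 libraries). The shCCN3 libraries lie to the right for 16 of the 18 enzymes, PMVK and EBP being the exceptions, and to the left for ABCA1. ABCG1, at 0 counts in shCCN3, is left out.

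The early steps turn acetyl-CoA into mevalonate and then into farnesyl pyrophosphate, and 6 of the 7 genes here were called higher, with a median log2FC of 0.86. MVD, which decarboxylates mevalonate pyrophosphate, had the largest log2FC of the 30 genes. It measured 74.4, 77.5 and 89.7 CPM in the shCTRL libraries and 200.3, 244 and 198 CPM in the shCCN3 libraries. The lowest shCCN3 library was thus above 2 times the highest shCTRL library, and the log2FC was 1.41 (standard error, SE, 0.10, adjusted p = 1.05e-05). ACAT2, the cytosolic thiolase that joins acetyl-CoA units, measured 102, 106 and 111 CPM in shCTRL and 247, 273 and 249.8 CPM in shCCN3 libraries. Its log2FC was 1.27 (SE 0.065, adjusted p = 1.45e-06). HMGCS1, the cytosolic HMG-CoA synthase, measured 197, 194 and 183 CPM in shCTRL and 399, 379 and 431 CPM in shCCN3 libraries, a log2FC of 1.08 (SE 0.066, adjusted p = 4.18e-06). These 3 genes rose by more than 2-fold and their groups were far apart.

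IDI1, the isomerase that makes the allylic isoprenoid unit, measured 92.8, 88.9 and 96.3 CPM in shCTRL and 161, 171 and 171 CPM in shCCN3 libraries, a log2FC of 0.86 (adjusted p = 8.85e-06). FDPS, which makes farnesyl pyrophosphate and is the target of bisphosphonate drugs, measured 199, 208 and 221 CPM in shCTRL and 325, 373 and 323 CPM in shCCN3 libraries, a log2FC of 0.70 (adjusted p = 0.000105). In both genes all shCCN3 libraries were higher. The kinases of mevalonate and its phosphate had smaller log2FCs. MVK, the first kinase, ranged from 50.6 to 60.9 CPM in shCTRL and from 65.2 to 76.7 CPM in shCCN3 libraries, and its log2FC of 0.31 (adjusted p = 0.0263) was no longer called without shCTRL replicate 1 or 2 (0.24 and 0.32, adjusted p = 0.0980 and 0.0793). PMVK, the second kinase, ranged from 36.4 to 42.3 CPM in shCTRL and from 27.9 to 41.4 CPM in shCCN3 libraries. It was not called, with a log2FC of -0.29 (95% interval -0.62 to 0.03, adjusted p = 0.155). shCCN3 replicate 2 alone lay within the control range, and without it PMVK was lower, with a log2FC of -0.50 (adjusted p = 0.000467). That is the library whose short genes were high, and whether this plays a part in the value of PMVK was not tested.

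The squalene and lanosterol steps commit farnesyl pyrophosphate to sterols, and all 3 genes were called higher, with a median log2FC of 0.51. SQLE, the oxygenase that makes squalene epoxide and one of the slow steps of the pathway, measured 159.9, 154 and 150.2 CPM in shCTRL and 402, 332 and 376 CPM in shCCN3 libraries. Its log2FC of 1.26 (SE 0.077, adjusted p = 3.98e-06) was the third largest among the enzymes. FDFT1, the squalene synthase, measured 314, 316 and 315 CPM in shCTRL and 447, 470.1 and 429.7 CPM in shCCN3 libraries, a log2FC of 0.51 (adjusted p = 0.00013). LSS, which closes the sterol rings to give lanosterol, rose by less, from 226 ± 5.01 to 303 ± 9.25 CPM (mean ± SD, n = 3), with a log2FC of 0.42 (adjusted p = 0.000365).

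From lanosterol to cholesterol, 7 of the 8 genes were called higher, with a median log2FC of 0.62. MSMO1, which starts the removal of the methyl groups at carbon 4, measured 98.1, 100.3 and 104 CPM in shCTRL and 174, 183 and 179 CPM in shCCN3 libraries, a log2FC of 0.83 (adjusted p = 6.86e-06). DHCR7, the 7-dehydrocholesterol reductase that completes cholesterol, measured 139, 139.8 and 138 CPM in shCTRL and 249.6, 247 and 242 CPM in shCCN3 libraries, a log2FC of 0.82 (adjusted p = 4.77e-06). The spread between replicates was small in both genes beside the gap between the groups. SC5D, the desaturase that acts before DHCR7, measured 43.0, 38.7 and 40.5 CPM in shCTRL and 69.2, 64.6 and 71.9 CPM in shCCN3 libraries, a log2FC of 0.75 (adjusted p = 4.31e-05). NSDHL, a dehydrogenase of the demethylation complex, measured 59.0, 64.8 and 70.2 CPM in shCTRL and 96.8, 105 and 90.0 CPM in shCCN3 libraries, a log2FC of 0.59 (adjusted p = 0.000612). HSD17B7, the 3-ketosteroid reductase of the same complex, measured 14.4, 14.1 and 15.3 CPM in shCTRL and 21.6, 26.8 and 20.3 CPM in shCCN3 libraries, a log2FC of 0.65 (adjusted p = 0.00153). HSD17B7 has near-identical copies in the genome, so its counts are uncertain.

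CYP51A1, the demethylase that acts first on lanosterol, rose from 103 ± 3.65 to 136 ± 1.52 CPM (mean ± SD, n = 3), with a log2FC of 0.40 (adjusted p = 0.000526). It did so on chromosome 7, where the median log2FC of the genes tested was -0.43. TM7SF2, a sterol reductase of the next step, ranged from 5.84 to 7.37 CPM in shCTRL and from 8.30 to 10.0 CPM in shCCN3 libraries. Its log2FC of 0.48 (adjusted p = 0.0127) fell short of the threshold without shCTRL replicate 1 (0.41, adjusted p = 0.0536). EBP, the sterol isomerase, was nearly silent in the count table, with 0.834 to 1.00 CPM in shCTRL and 0.537 to 1.35 CPM in shCCN3 libraries, and its groups overlapped. At this depth a difference in EBP was not detectable (log2FC 0.03, 95% interval -0.69 to 0.74, adjusted p = 0.96), and the interval includes the values of CYP51A1, TM7SF2, NSDHL and HSD17B7.

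**Figure D2:**
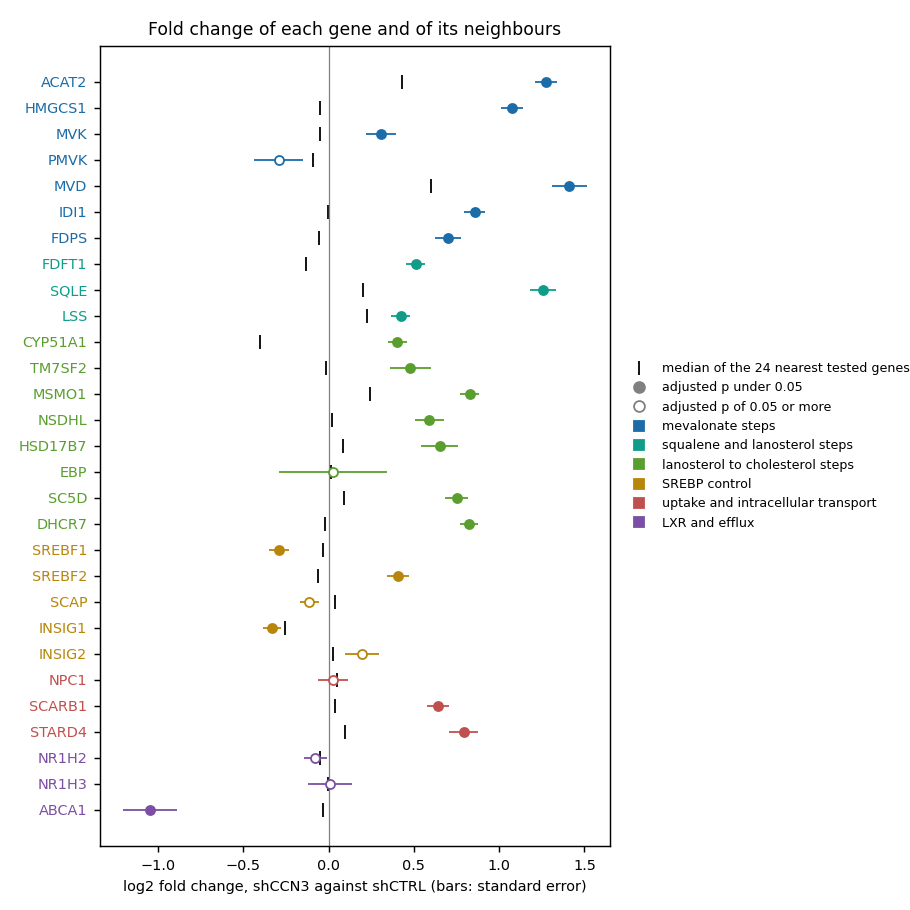
The plot gives the log2FC of shCCN3 against shCTRL (x axis) of 29 of the 30 genes, with bars for the standard error (SE). Filled circles passed an adjusted p of 0.05, open circles did not, and black ticks mark the median log2FC of the 24 tested genes nearest on the chromosome. The filled circles of the 16 enzymes called higher lie right of their ticks.

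Levels of different genes can be compared only per length of transcript, here as mean CPM per kilobase of the longest protein-coding transcript in GENCODE release 29. FDPS and FDFT1 were the most abundant of the enzymes on this scale in shCTRL cells, at 142 and 118 CPM per kilobase. SQLE stood at 52.3 and HMGCS1 at 54.5 CPM per kilobase in shCTRL cells, and at 125 and 115 in shCCN3 cells. MVD moved from 44.2 to 117 CPM per kilobase. EBP was the lowest enzyme, at 0.514 and 0.528 CPM per kilobase.

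The genes that govern the pathway did not rise as a block. Of the 5, SREBF2 was called higher, SREBF1 and INSIG1 lower, and SCAP and INSIG2 were not called. SREBF2, which encodes the main activator of the synthesis genes, measured 187, 196 and 190.0 CPM in shCTRL and 263, 232 and 264 CPM in shCCN3 libraries. Its log2FC was 0.41 (SE 0.066, adjusted p = 0.00138), and all shCCN3 libraries were higher. SREBF1, which encodes the SREBP-1 forms that act mainly on fatty acid genes and is itself an LXR target, measured 207, 217 and 229 CPM in shCTRL and 176, 178 and 179 CPM in shCCN3 libraries. Its log2FC was -0.29 (SE 0.058, adjusted p = 0.00405), and all shCCN3 libraries were lower. The 2 SREBF genes thus moved in opposite directions.

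INSIG1, an SREBP target that feeds back on SCAP, measured 318, 319.9 and 328 CPM in shCTRL and 254, 252 and 262 CPM in shCCN3 libraries, and the groups did not overlap. Its log2FC was -0.33 (SE 0.053, adjusted p = 0.00118). INSIG1 lies on chromosome 7 (GRCh38, chr7:155297878-155310235), and the 24 tested genes nearest to it had a median log2FC of -0.26. Relative to those neighbours its log2FC was -0.07, and relative to the median of chromosome 7 it was 0.10, so the direction of INSIG1 against its surroundings depends on that reference. The part of the chromosome in its fall was not tested. INSIG2, its paralog, measured 14.9, 13.4 and 12.8 CPM in shCTRL and 14.1, 15.8 and 17.2 CPM in shCCN3 libraries, with overlapping groups and a log2FC of 0.20 (95% interval -0.03 to 0.42, adjusted p = 0.164). SCAP, the escort protein, ranged from 136 to 142 CPM in shCTRL and from 124 to 132 CPM in shCCN3 libraries. All shCCN3 libraries were lower, but the log2FC of -0.11 did not pass the test (95% interval -0.24 to 0.01, adjusted p = 0.151).

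Among the genes of uptake and transport, SCARB1 and STARD4 rose and NPC1 did not pass the test. SCARB1, the scavenger receptor that takes up cholesteryl esters from HDL, measured 55.7, 60.1 and 58.9 CPM in shCTRL and 90.7, 95.6 and 86.1 CPM in shCCN3 libraries, a log2FC of 0.64 (SE 0.064, adjusted p = 7.48e-05). STARD4, a soluble carrier that moves sterol between membranes, measured 35.9, 31.7 and 33.5 CPM in shCTRL and 56.8, 53.6 and 64.6 CPM in shCCN3 libraries, a log2FC of 0.79 (SE 0.085, adjusted p = 0.000112). In both genes the groups were clearly separate. NPC1, which releases cholesterol from lysosomes, ranged from 142 to 159 CPM in shCTRL and from 134 to 165 CPM in shCCN3 libraries, a log2FC of 0.02 (95% interval -0.18 to 0.22, adjusted p = 0.869).

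The exporters ABCA1 and ABCG1 went the other way. ABCA1, which loads cellular cholesterol onto apolipoprotein A-I, measured 14.1, 11.5 and 10.3 CPM in shCTRL and 5.72, 4.75 and 6.85 CPM in shCCN3 libraries. All shCCN3 libraries were lower, with a log2FC of -1.05 (SE 0.16, adjusted p = 0.000856), and the gene lies at chr9:104781006-104928155 in GRCh38. ABCG1, which exports cholesterol to HDL, had 25, 26 and 39 counts in the shCTRL libraries and 0 counts in each shCCN3 library. These are low counts in libraries of this size (0.364, 0.414 and 0.581 CPM in shCTRL), and against a floor of 3 counts per library ABCG1 was at least 9.41-fold lower in shCCN3 cells (adjusted p = 0.000456). Floors cover counting error only. ABCG1 lies at chr21:42199689-42297244 in GRCh38, where its nearest tested genes had a median log2FC of 0.31, in the opposite direction.

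The receptors that drive the exporters were not called. NR1H2, which encodes the widely expressed LXR beta, ranged from 89.2 to 97.7 CPM in shCTRL and from 83.3 to 94.1 CPM in shCCN3 libraries, a log2FC of -0.08 (95% interval -0.23 to 0.07, adjusted p = 0.413). NR1H3, which encodes LXR alpha, ranged from 5.69 to 6.86 CPM in shCTRL and from 5.70 to 7.41 CPM in shCCN3 libraries, a log2FC of 0.00665 (95% interval -0.28 to 0.30, adjusted p = 0.975). The groups overlapped for both genes.

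**Figure D3:**
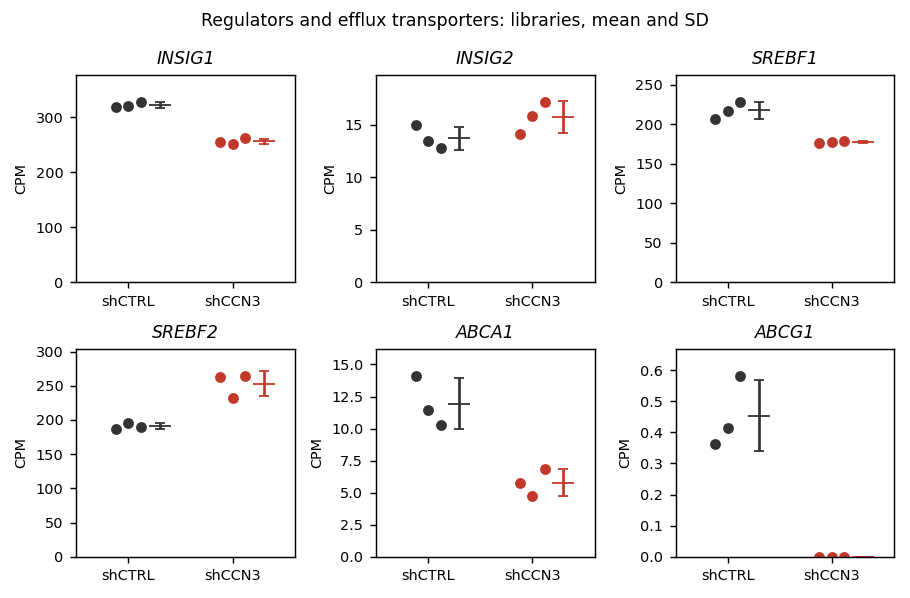
Each panel plots 1 gene in CPM on a linear axis from 0, with 3 shCTRL and 3 shCCN3 libraries as points and the mean with its SD beside them. SREBF2 is higher in shCCN3, INSIG1, SREBF1 and ABCA1 are lower, INSIG2 overlaps, and ABCG1 is at 0 in all 3 shCCN3 libraries.

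Because so many synthesis genes moved together, the sequence before their start sites was examined for motifs of SREBP and of the factors it works with. Promoters from 250 bases before to 50 bases after each RefSeq start (GRCh38.p14) matched 25 of the 30 genes, among them 15 of the 18 enzymes and 15 of the 19 genes called higher. The letters were searched on both strands, and a gene with several starts was counted if any of them held the motif. The motif CCAAT, bound by NF-Y, was present in 13 of the 15 enzymes (86.7%) and in 4 of the 10 other genes (40.0%), where 39.7% of 27305 genes with a promoter held it. Of the 15 genes called higher, 14 held it (93.3%). PMVK, SREBF1, SCAP, NPC1, NR1H2, ABCA1 and INSIG2 held none in this window, and so did CYP51A1, which rose. The GC box GGGCGG was found in 24 of the 25 genes (96.0%), beside 48.3% of all promoters, and the E-box CACGTG in 5 of the 25, beside 8.77%. Of 39 further sterol and lipid genes with a promoter, from the lists described below, 22 held CCAAT (56.4%) and 33 the GC box (84.6%). The 27305 genes were not matched to these genes for expression, so the shares do not tie a motif to the rise.

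The classical sterol regulatory element TCACNCCAC was found in 1 of the 25 genes, SREBF2, and in 1.39% of all promoters. Only these letters were searched, with N as any base, so other forms of the element and sites outside the window were missed. The window around it is shown because SREBF2 encodes the activator itself, and it lies on the plus strand at chr22:41832964-41832988 with its last motif base 125 bases before the start. Capitals mark the element.
SREBF2 element: acgcgccaTCACCCCACgcaccgct

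The 200 bases before the start of 3 enzymes that rose (MVD, FDPS and MSMO1), of SREBF2, and of 2 genes that fell (SREBF1 and ABCA1) are printed as examples. They were chosen after the values were seen. Each is written on the strand of its gene, with CCAAT or its complement ATTGG and the sterol regulatory element in capitals. MVD lies at chr16:88663092-88663291 on the minus strand, FDPS at chr1:155308666-155308865, MSMO1 at chr4:165327469-165327668 and SREBF2 at chr22:41832905-41833104 on the plus strand, and SREBF1 at chr17:17836987-17837186 and ABCA1 at chr9:104928156-104928355 on the minus strand.
MVD: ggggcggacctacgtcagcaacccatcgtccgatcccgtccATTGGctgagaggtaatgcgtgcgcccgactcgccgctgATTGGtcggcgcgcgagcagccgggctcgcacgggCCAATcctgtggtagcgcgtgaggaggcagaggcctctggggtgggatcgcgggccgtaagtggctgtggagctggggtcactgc
FDPS: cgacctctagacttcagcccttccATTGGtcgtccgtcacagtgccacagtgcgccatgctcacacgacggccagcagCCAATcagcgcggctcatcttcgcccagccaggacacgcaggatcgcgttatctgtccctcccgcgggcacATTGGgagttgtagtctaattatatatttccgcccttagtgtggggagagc
MSMO1: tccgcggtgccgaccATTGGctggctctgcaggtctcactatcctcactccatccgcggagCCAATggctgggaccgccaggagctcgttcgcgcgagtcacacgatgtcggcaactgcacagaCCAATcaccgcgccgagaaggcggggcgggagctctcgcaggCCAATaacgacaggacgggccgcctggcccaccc
SREBF2: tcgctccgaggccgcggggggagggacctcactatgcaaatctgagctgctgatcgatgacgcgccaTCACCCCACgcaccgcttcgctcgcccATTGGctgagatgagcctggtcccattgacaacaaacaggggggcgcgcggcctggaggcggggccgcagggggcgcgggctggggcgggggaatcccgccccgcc
SREBF1: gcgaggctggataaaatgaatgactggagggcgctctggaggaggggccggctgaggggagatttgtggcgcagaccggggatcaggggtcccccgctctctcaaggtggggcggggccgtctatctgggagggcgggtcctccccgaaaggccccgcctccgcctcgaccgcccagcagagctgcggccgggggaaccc
ABCA1: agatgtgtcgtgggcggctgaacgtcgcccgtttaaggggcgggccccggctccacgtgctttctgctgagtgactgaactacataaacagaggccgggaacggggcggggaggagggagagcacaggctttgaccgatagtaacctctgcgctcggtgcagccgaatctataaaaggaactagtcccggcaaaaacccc
MVD and FDPS held 3 copies each of CCAAT in these 200 bases, MSMO1 held 4 and SREBF2 held 1, while SREBF1 and ABCA1 held 0. In the longer windows searched above, INSIG1, which fell, held 1 copy and EBP, which was not called, held 3. Other enzymes called higher ranged there from 0 copies in CYP51A1 and 1 each in LSS, TM7SF2 and SC5D to 5 each in MVK and NSDHL. The copies of the 3 enzymes lay between 30 and 181 bases before the start. These matches describe the letters and do not show that a factor was bound.

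Neighbouring genes moved together in some regions, so each gene was compared with the 24 tested genes nearest to it. All 19 genes called higher had a log2FC above the median of their neighbours, all 4 called lower were below it, and the enzymes had a median of 0.65 after subtraction of that median, with 17 of 18 above 0. The surroundings were themselves high around MVD (median 0.60), ACAT2 (0.43), MSMO1 (0.24), LSS (0.22) and SQLE (0.20), which after subtraction stood at 0.81, 0.84, 0.59, 0.20 and 1.05. CYP51A1 stood at 0.80, since its neighbours had a median of -0.40. How much of each change goes with its region was not tested. ACAT2 (GRCh38, chr6:159762045-159779112) also overlaps TCP1 by 615 bases and SOD2 by 237 bases, genes with log2FCs of 0.39 and 0.92, and MVK overlaps MMAB, with 0.42. Whether the reads were counted by strand is not given in the sources used here, so counts of overlapping genes could be shared.

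The wider pathway was followed in 48 further genes of sterol and lipid metabolism, of which 44 were tested. Among those not tested, CH25H had 0 counts in every library, and FAXDC2 and CD36 did not pass the filter. Of the 44, 15 were called higher and 10 lower, with a median log2FC of 0.04. Over all genes tested the shares were 16.2% higher and 17.3% lower, and they also stand beside the counts of each list below. These calls thus fell on both sides. Without shCTRL replicate 2 the count called lower was 6.

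Of the 9 genes of fatty acid synthesis, which SREBP-1 activates, 5 were called higher and 1 lower. SCD, which makes monounsaturated fatty acids, rose from 850.5 ± 27.0 to 1402 ± 120.4 CPM (mean ± SD, n = 3), with a log2FC of 0.72 (adjusted p = 6.39e-05). FASN, the fatty acid synthase, had a log2FC of 0.30, ACSS2, which makes acetyl-CoA from acetate, one of 0.50, and ELOVL6, an elongase, one of -0.29. Of 8 tested genes of other sterol and isoprenoid enzymes, 4 were called higher and 1 lower. DHDDS, which makes the dolichol chain used for protein glycosylation, fell from 59.2 ± 2.27 to 43.7 ± 1.35 CPM (mean ± SD, n = 3), with a log2FC of -0.44 (adjusted p = 0.00056), beside a neighbour median of -0.27. It branches from farnesyl pyrophosphate, the product of FDPS. NUS1, the other gene of the dolichol chain in this list, was called higher, with a log2FC of 0.32 (adjusted p = 0.00408), beside a neighbour median of 0.58.

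Of 7 genes that process SREBPs or degrade sterol-regulated proteins, 2 were called higher and 1 lower. MBTPS1, the site-1 protease that cuts SREBPs in the Golgi, rose from 112 ± 3.25 to 199.7 ± 9.71 CPM (mean ± SD, n = 3), with a log2FC of 0.83 (adjusted p = 1.08e-05), but its nearest genes had a median of 0.75. TMEM97, a sterol-responsive membrane protein, rose by 0.52 on the log2 scale (adjusted p = 0.000113), with a neighbour median of 0.02. MBTPS2, the second protease, was not called (log2FC -0.12, adjusted p = 0.505).

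Of 11 tested genes of cholesterol transport and storage, 1 was called higher and 4 lower. VLDLR, a receptor for triglyceride-rich lipoproteins, rose from 18.1 ± 0.943 to 29.4 ± 1.96 CPM (mean ± SD, n = 3), with a log2FC of 0.70 (adjusted p = 0.000144). CAV1, the main protein of caveolae, fell from 639.7 ± 13.6 to 407 ± 10.1 CPM (mean ± SD, n = 3), with a log2FC of -0.65 (adjusted p = 2.06e-05). STARD3NL, a tether between endosomes and the endoplasmic reticulum, had a log2FC of -0.52 (adjusted p = 0.000379). Both CAV1 and STARD3NL lie on chromosome 7, and their nearest genes had medians of -0.44 and -0.06. SOAT1, which esterifies cholesterol for storage, had a log2FC of -0.30 (adjusted p = 0.0259).

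Of the 6 LXR partners and targets, 2 were called higher and 3 lower. RXRA, a partner of the LXRs, fell from 109 ± 3.92 to 68.7 ± 1.07 CPM (mean ± SD, n = 3), with a log2FC of -0.67 (adjusted p = 2.79e-05). RXRB, its relative, had a log2FC of 0.41 (adjusted p = 0.00102). The genes nearest to RXRA and RXRB had medians of -0.21 and 0.26, in the same directions. LPCAT3, an LXR target that remodels phospholipids, fell from 31.4 ± 1.28 to 21.5 ± 0.623 CPM (mean ± SD, n = 3), with a log2FC of -0.54 (adjusted p = 0.00027), and PLTP, which transfers phospholipids between lipoproteins, had one of -0.41 (adjusted p = 0.0271). MYLIP, an LXR target that marks lipoprotein receptors for degradation, rose from 8.20 ± 1.51 to 15.1 ± 0.934 CPM (mean ± SD, n = 3), with a log2FC of 0.88 (adjusted p = 0.000888), beside a neighbour median of 0.43. Of the genes treated here as LXR targets, ABCA1, ABCG1, SREBF1, LPCAT3 and PLTP were thus called lower and MYLIP higher. Whether LXR activity differed was not tested. ABCG4, the remaining gene of this list, averaged 1.79 CPM in shCTRL and 2.06 CPM in shCCN3 libraries. It was not called (log2FC 0.20, adjusted p = 0.583). Among the oxysterol hydroxylases, CYP7B1 had 0 counts in every shCTRL library and 48, 66 and 54 counts in the shCCN3 libraries, at least 20.0-fold higher against the floor of 3 counts per library (adjusted p = 0.000118). Its mean in shCCN3 cells was 0.909 ± 0.252 CPM (mean ± SD, n = 3), below the 1 CPM set for naming a gene, and it was singled out after its values were seen.

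**Figure D4:**
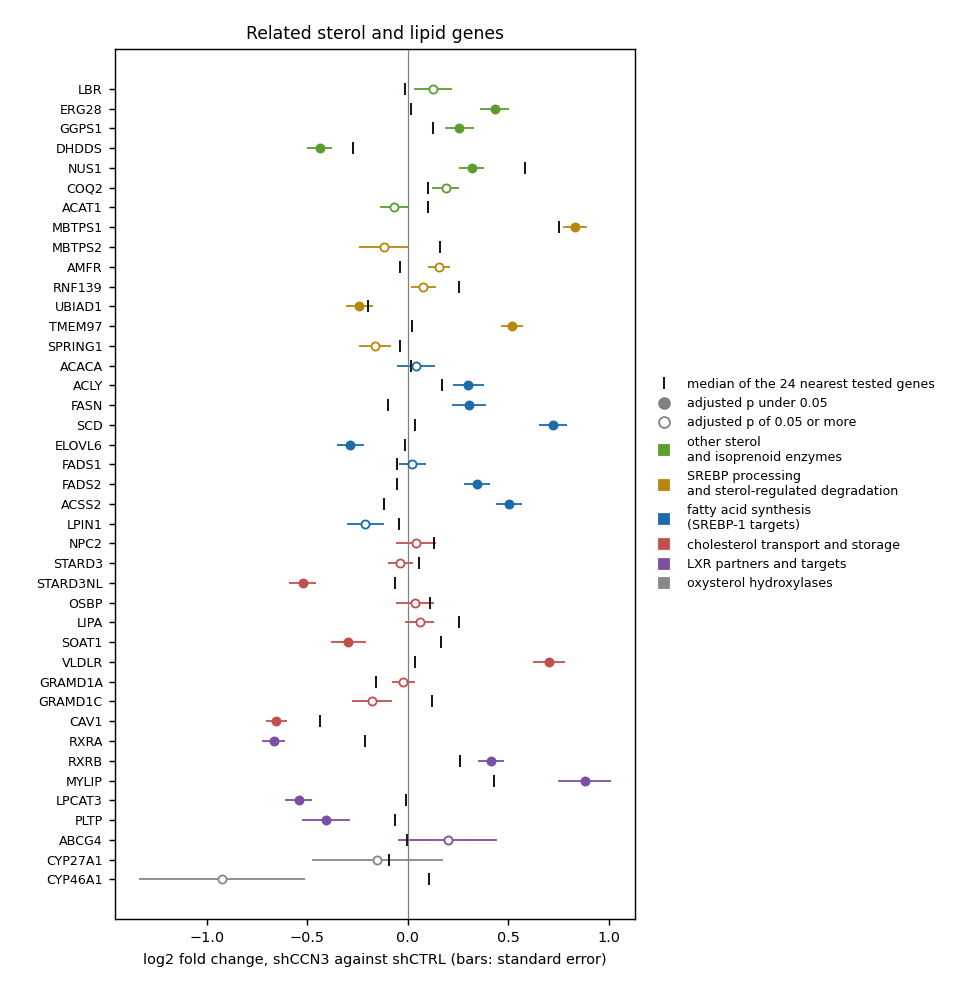
The plot gives the log2FC of shCCN3 against shCTRL (x axis, bars for the standard error) of related genes tested, coloured by list. Filled circles passed an adjusted p of 0.05, and black ticks mark the median of the 24 nearest tested genes. Points lie on both sides of 0, and the point of MBTPS1 lies close to its tick. CYP7B1 and GRAMD1B, each with 0 counts in at least 1 library, are left out.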

How the data were processed

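Total RNA of Hs578T cells with control shRNA or CCN3 shRNA was made into stranded poly(A) libraries, 3 per group. The authors deposited raw counts of 46427 genes without normalization. The submitters' processing notes name bcl2fastq 2.20.0, Trimmomatic, HISAT2 2.1.0, StringTie, DESeq2 and GRCh38. The annotation and the strand setting of the counting are not given in the sources used here. Groups and replicate numbers were taken from the sample titles, and no library was a copy of another of its group (chi-square per degree of freedom 7.13 to 46.0).

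Counts were filtered by group with edgeR 4.0.16 (R 4.3.3), normalized with TMM and tested with the quasi-likelihood test, shCCN3 against shCTRL, without a block, with Benjamini-Hochberg adjustment over 17419 genes. The script was tested on simulated data. Standard errors are the log2 fold change over the root of the F statistic, and 95% intervals use the total degrees of freedom of that test.

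All 30 genes are named. Values per library are given where the log2 fold change was called and at least 0.5 in size, and for 6 regulators and transporters. Of the related genes, the 5 largest called changes in each direction at 1 CPM or more are described, with others for their role. Some genes of the related lists enter the counts but are not reported here by name. The members and lists were chosen with earlier results of these data known. Gene positions were taken from RefSeq for 44698 of the Gene IDs. Alternatives were DESeq2 1.42.0 and its size factors, limma-voom (limma 3.58.1), upper-quartile scaling, CPM without TMM factors, no filter or at least 10 counts in every sample, a replicate block, subtraction of the chromosome's median, each library left out, and, added after seeing the data, subtraction of the median of the 24 nearest genes.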

Additional observations from a re-analysis of the deposited data

How the results depend on the processing

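Of the 30 genes, 23 were called under DESeq2, limma-voom, DESeq2's size factors, upper-quartile scaling, CPM without TMM factors, no filter and the replicate block, and 21 to 24 with each library left out. With at least 10 counts in every sample the count was 22, because ABCG1 was then not tested. Over all genes tested, 5825 were called in the main fit and 4887 with the replicate block. Such totals for the other settings are not reported here, so the counts show only whether the calls of these genes held. Synthesis enzymes called lower numbered 0 to 1 with each library left out, the 1 being PMVK without shCCN3 replicate 2. Related genes called lower numbered 6 to 11 with each library left out, 6 without shCTRL replicate 2, and 8 with the replicate block. CCN3 stayed between -1.12 and -1.09 with each library left out and was -1.08 without TMM factors.

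Directions reversed only in genes that were not called or that lie on chromosome 7. EBP was -0.0896 in limma-voom, -0.0398 with the replicate block and -0.32 to 0.31 with each library left out. NPC1 was -0.0276 to 0.12 and NR1H3 -0.11 to 0.0856 with each library left out, and NR1H3 was -0.00312 in limma-voom. INSIG1 was 0.10 after subtraction of the median of its chromosome. Subtracting the chromosome's median moved 10 of the 30 log2 fold changes, INSIG1 among them, and subtracting the neighbours' median moved 11, by more than the SD between replicates. The cause of these changes was not tested.

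Over genes above 1 CPM, the deviations of same-numbered samples correlated at 0.19, -0.11 and -0.39 for replicates 1, 2 and 3, and no shCTRL sample correlated best with its own number, so the numbers were not taken to pair the samples. With a replicate block 4887 in place of 5825 genes were called and the log2 fold change of CCN3 was -1.10. Depth limits EBP and ABCG1, which have few counts, and 3 libraries per group limit every interval.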
